A study of Mus musculus with 21 samples.

Results

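The genes described here stand at the entry of paraxial mesoderm cells into the dermomyotome and the muscle lineage: Pax3, Eya1, Dmrt2, Myf5 and Met. They were taken by name, and each is represented by its probe set with the highest mean signal among those annotated to that gene alone. All 5 were measured, with 10 of the 45101 probe sets on the array, and stand among 18193 genes with such a probe set. The tissue is the presomitic mesoderm (PSM), the unsegmented mesoderm beside the caudal neural tube, of CD-1 mouse embryos. CD-1 is an outbred strain, and the labels name no mutation. Their stage is given as embryonic day 8.5 in one label and as 9.0 days after coitus in another. The PSM of an embryo was cut into 7 parts after a short pancreatin digestion, each part has 3 arrays, and the series has 21 arrays in all. The series follows expression between tailbud and somite.

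The dermomyotome is the dorsal epithelium of the somite, which gives rise to the skeletal muscle of trunk and limbs and to the dermis of the back. The paired-box factor Pax3 marks its progenitor cells, and in mouse it acts upstream of the muscle determination factor Myf5 and of the receptor Met. Homeodomain factors such as Six4 work with Eya1, their phosphatase co-activator, on shared targets, and Dmrt2, a DM-domain factor, links Pax3 to an early Myf5 enhancer in the somite. Met is the receptor of hepatocyte growth factor (Hgf), under which muscle precursors leave the dermomyotome for the limb. Met also acts in many epithelia, and Pax3 also acts in the dorsal neural tube and the neural crest.

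The labels do not say which part number lies at which end. Tbx6 and Hes7, genes of the unsegmented PSM, had median signals of 19.7 and 25.6 in part 7, against 526 and 456 in part 1. Meox1, a gene of the somite and anterior PSM, had a median signal of 2723 in part 7 and 15.1 in part 1. The pieces thus carry the defining markers of paraxial mesoderm. By the design text, both sides of 1 embryo and material of a further embryo were used, without saying which replicate numbers these are. Some arrays therefore share an embryo, and p-values reflect only the spread between arrays. In whole pieces of tissue, fewer cells of a type and less RNA per cell cannot be told apart. Mean signal lay between 151 and 154 per array and the median between 12.9 and 13.7. No pair of arrays held identical values, and precision is limited by how many arrays there are.

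The RefSeq promoter windows of assembly GRCm38.p6, 300 bases around a transcript start, were at hand for 3 of the 5 genes and are shown as the sequences before the starts of genes that were all called higher in part 7 than in part 1. The window of Met is chr6:17463707-17464006 on the plus strand, that of Myf5 chr10:107486085-107486384 on the minus strand and that of Dmrt2 chr19:25672161-25672460 on the plus strand, each written 5′ to 3′ on the gene's strand. Capitals mark E-boxes (CANNTG, the core that myogenic and other basic helix-loop-helix factors bind) in Met, a TATAAA in Myf5 and CCAAT boxes in Dmrt2.
Met promoter: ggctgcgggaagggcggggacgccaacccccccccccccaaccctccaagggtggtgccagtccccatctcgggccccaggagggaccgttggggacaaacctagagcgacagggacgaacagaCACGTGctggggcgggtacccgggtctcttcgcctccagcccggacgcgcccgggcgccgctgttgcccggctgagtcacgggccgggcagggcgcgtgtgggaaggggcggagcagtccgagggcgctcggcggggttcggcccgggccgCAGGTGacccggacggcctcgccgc
Myf5 promoter: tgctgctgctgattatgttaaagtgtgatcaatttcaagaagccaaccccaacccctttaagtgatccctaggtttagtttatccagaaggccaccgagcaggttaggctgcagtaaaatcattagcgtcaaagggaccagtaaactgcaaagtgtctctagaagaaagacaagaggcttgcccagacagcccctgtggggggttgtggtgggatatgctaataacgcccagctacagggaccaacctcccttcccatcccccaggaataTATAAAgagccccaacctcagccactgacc
Dmrt2 promoter: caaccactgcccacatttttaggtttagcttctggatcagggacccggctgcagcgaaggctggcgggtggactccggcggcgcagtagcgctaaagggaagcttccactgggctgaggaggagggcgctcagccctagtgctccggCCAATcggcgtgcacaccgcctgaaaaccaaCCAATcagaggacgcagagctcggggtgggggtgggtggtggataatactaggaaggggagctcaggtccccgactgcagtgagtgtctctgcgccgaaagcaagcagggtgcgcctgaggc
The E-box CANNTG was searched on both strands, as were the homeodomain core TAATTA and the MEF3 site TCAGGTT, which Six4 binds. Of 32851 promoter windows of the same length, 72.3% held CANNTG, 5.29% held TAATTA and 4.07% held TCAGGTT. Met held 2 E-boxes, CACGTG starting 126 bases before the start and CAGGTG starting 25 bases after it. Myf5 and Dmrt2 held none, and the homeodomain core and the MEF3 site were in 0 of the 3 windows. The search for TATAAA, found in 13.6% of all windows, was added after the sequences had been seen, as was that for CCAAT, found in 37.4%. Myf5 had TATAAA 20 bases after the start that the table uses, and Dmrt2 had CCAAT starting 103 and 72 bases before its start. The windows of Met and Myf5 lie within the annotated gene span, so that start is not the outermost one annotated. A match describes these letters and is not a measured binding site.

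All 5 genes had more signal in part 7 than in part 1, but they differed in where along the 7 parts the signal rose. Eya1 and Met had most of their rise between parts 1 and 4. Pax3 and Dmrt2 had most of theirs after part 4. Myf5 stayed low through part 6 and was high in 2 of the 3 arrays of part 7. Values below are MAS5 signals, a linear brightness scaled by the authors, and fold changes are on log2(signal + 16), which understates the change of a gene with little signal. A signal of 0 is 4 on that scale, and the median of all signals in the table is 13.3. Genes were tested with limma over 12143 genes that reached that median in at least 3 arrays, with Benjamini-Hochberg adjustment over all of them. All 5 genes were in that set. Differences are given with the SE of the fit, and part means with the SD of 3 arrays.

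**Figure D1:**
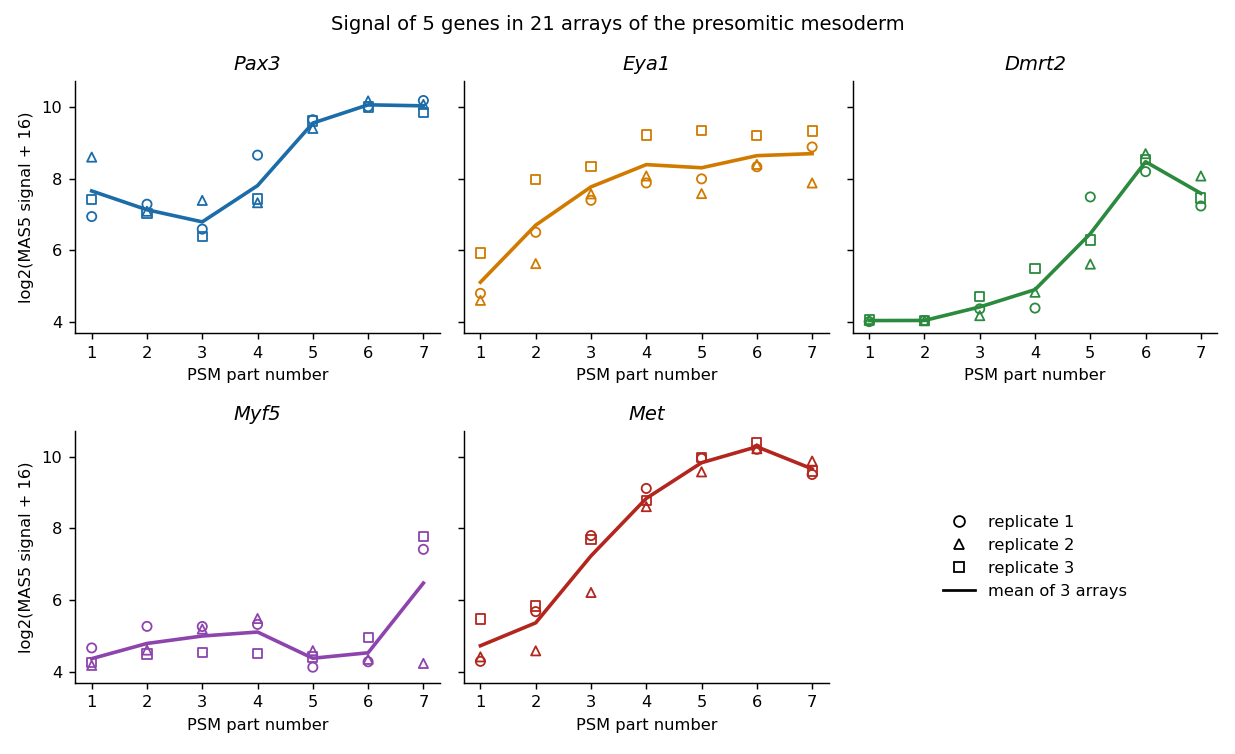
Log2(MAS5 signal + 16) of the 5 genes in all 21 arrays, by part number from 1 to 7; symbols are the 3 replicate numbers and the line joins the means of 3 arrays. Pax3 lies flat to part 4 and high in parts 5 to 7, Eya1 and Met climb through parts 1 to 4, Dmrt2 lies at the floor of 4 in parts 1 and 2 and climbs to part 6, and Myf5 is high in replicates 1 and 3 of part 7 and not in replicate 2.

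Pax3, the paired-box factor of the dermomyotome and its muscle progenitors, was present in every array. Its 3 arrays read 107, 373 and 156 in part 1, 140, 121 and 114 in part 2, and 80.6, 152 and 68.4 in part 3. In part 4 they read 388, 145 and 157, and in part 5 784, 661 and 764. In parts 6 and 7 they read 1014, 1136 and 1009, and 1144, 1060 and 903. Among the first 4 parts every pair overlapped except parts 4 and 2, all arrays of part 5 lay above all of part 4, and parts 6 and 7 overlapped. On the log2 scale the means were lowest in part 3, at 6.80 ± 0.53, and highest in part 6, at 10.06 ± 0.10 (SD, n = 3 each).

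Pax3 was 5.18-fold higher in part 7 than in part 1, a log2 difference of 2.37 ± 0.35 (SE; adjusted p = 8.71e-05). Part 7 was 4.67-fold above part 4 (log2 difference 2.22 ± 0.35, adjusted p = 0.000511), while part 4 differed from part 1 by 0.15 ± 0.35, within its error (adjusted p = 0.916). The step between parts 4 and 5 was the 1 neighbouring step of Pax3 that passed, at 1.74 ± 0.35 or 3.35-fold (adjusted p = 0.0269). That call was lost in 8 of 24 fits without a single replicate number or array, with adjusted p up to 0.384, and the difference in those 8 lay between 1.51 and 2.12. The sign of the difference between parts 4 and 1 turned without replicate 1, at -0.63.

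Because Pax3 is also a gene of neural crest and dorsal neural tube, markers of those tissues were read beside it. The mean log2 signal of 6 measured neural crest genes (Sox10, Foxd3, Tfap2a, Tfap2b, Ets1 and Ednrb) was 5.15 to 5.34 in part 7 and 4.91 to 5.12 in part 1. In this mean every array of part 7 thus lay above every array of part 1. Of the 4 genes of the list that could be tested, 0 had a slope that passed in limma, and 0 passed at an unadjusted p under 0.05. Sox10, a defining crest factor, lay between 6.47 and 24.4 in signal over all arrays, and Foxd3, another, between 0.573 and 19.0. The mean of 10 neural tube genes was 4.75 to 5.09 in part 7 and 5.08 to 5.20 in part 1. Within that list 1 gene of 7 tested rose (Olig2) and 1 fell (Fabp7), against 8.09% and 11.1% of all genes. The part of crest or neural tube cells in the Pax3 level was not tested.

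Eya1, the co-activator of Six4, was the first of the 5 to rise in the part means of the probe set used. Its signals were 11.9, 8.39 and 44.9 in part 1, 74.9, 33.6 and 236 in part 2, and 153, 175 and 309 in part 3. They were 220, 254 and 580 in part 4 and 239, 176 and 629 in part 5. They were 306, 322 and 570 in part 6 and 457, 220 and 629 in part 7. Each neighbouring pair of parts overlapped, and all arrays of parts 7 and 4 lay above all of part 1.

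The log2 mean of Eya1 was 8.70 ± 0.74 in part 7, 8.39 ± 0.72 in part 4 and 5.11 ± 0.71 in part 1 (SD, n = 3 each). Part 7 was 12.0-fold above part 1 (log2 difference 3.59 ± 0.56, adjusted p = 0.000162), and the difference was 4.49 with a constant of 1 and 2.47 with 64. Part 4 was already 9.71-fold above part 1 (3.28 ± 0.56, adjusted p = 0.000926). This second call was lost without replicate 1 (adjusted p = 0.0594). Part 7 differed from part 4 by 0.31 ± 0.56, within its error (adjusted p = 0.879). None of its 6 neighbouring steps passed.

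Replicate 3 gave the highest Eya1 signal in 7 of 7 parts. In the same arrays the mean of 9 measured genes of intermediate and lateral mesoderm was highest in replicate 3 in 7 of 7 parts, and that of 6 endothelial genes and that of 10 ectoderm and endoderm genes in 6 of 7. Eya1 is also a gene of the nephrogenic intermediate mesoderm. The intermediate and lateral mesoderm mean was 4.76 to 5.03 in log2 signal in part 7, 4.83 to 5.52 in part 4 and 4.36 to 4.57 in part 1. Of its 6 tested genes 1 rose by slope (Wt1, 0.15 per part, adjusted p = 0.00436), against 8.09% of all genes. Between parts 7 and 1, Lhx1 (1.07, adjusted p = 0.0285) and Wt1 (0.84, 0.0292) were higher, where 6.1% of all genes were called higher. Osr1 had log2 means of 5.18 in part 7, 6.44 in part 4 and 4.47 in part 1, and its slope did not pass (0.446). The part of these cells in the Eya1 level was not tested. Within single replicate numbers the slope of Eya1 was 0.59, 0.55 and 0.49 log2 units per part, so the rise was there in each.

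Dmrt2, the DM-domain factor, had almost no signal in the lowest-numbered parts. Its signals were 0.157, 0.551 and 0.780 in part 1, and 0.510, 0.425 and 0.641 in part 2. They were 4.69, 2.13 and 10.3 in part 3, and 4.99, 12.5 and 29.0 in part 4. They were 164, 33.1 and 62.2 in part 5, 277, 399 and 353 in part 6, and 135, 254 and 160 in part 7. It reached the table's median of 13.3 in 10 of 21 arrays, 1 of them in part 4 and the others in parts 5 to 7.

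Dmrt2 was 11.7-fold higher in part 7 than in part 1 (log2 difference 3.55 ± 0.34, adjusted p = 5.08e-07). With part 1 at the floor, that fold depends on the added constant, and the log2 difference was 6.91 with a constant of 1. Part 7 was 6.43-fold above part 4 (2.69 ± 0.34, adjusted p = 6.51e-05), and part 4 differed from part 1 by 0.86 ± 0.34, which did not pass (adjusted p = 0.192). With a constant of 1 the difference between parts 4 and 1 was 3.19 and passed (adjusted p = 0.00159). The step between parts 5 and 6 passed, at 2.01 ± 0.34 or 4.02-fold (adjusted p = 0.0074). It was lost without replicate 2 (adjusted p = 0.44), without replicate 3 (0.131), without the second array of part 5 (0.0607) and with a constant of 1 (0.122). Part 7 was below part 6 by 0.88 ± 0.34, and the arrays of the 2 parts did not overlap, but the difference did not pass over all genes (adjusted p = 0.954).

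Met, the receptor through which Hgf acts on migrating muscle precursors, had the steepest slope of the 5 on this scale, while with a constant of 1 Dmrt2 was steeper (1.43 against 1.19 per part). Its signals were 3.59, 5.37 and 28.4 in part 1, 35.3, 8.02 and 41.1 in part 2, and 207, 58.2 and 190 in part 3. They were 538, 374 and 426 in part 4 and 976, 747 and 986 in part 5. They were 1165, 1177 and 1339 in part 6 and 710, 925 and 759 in part 7. Parts 1 and 2 overlapped, from part 3 to part 6 the arrays of each part lay above all arrays of the part before it, and part 7 lay below part 6 in all arrays and overlapped with part 5.

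On the log2 scale Met averaged 9.66 ± 0.19 in part 7, 8.84 ± 0.26 in part 4 and 4.73 ± 0.65 in part 1 (SD, n = 3 each). Part 7 was 30.5-fold above part 1 (log2 difference 4.93 ± 0.37, adjusted p = 1.87e-08), and part 4 was 17.3-fold above it (4.11 ± 0.37, adjusted p = 7e-07). As 2 arrays of part 1 lay below the table's median, the first difference moved with the constant, to 6.38 with 1 and 3.50 with 64. Part 7 stood 0.82 ± 0.37 above part 4, with no overlap of arrays, and this did not pass (adjusted p = 0.316). None of the single steps of Met passed. The closest was part 3 against part 2, at 1.87 ± 0.37 (adjusted p = 0.0962), followed by part 4 against part 3, at 1.60 ± 0.37 (adjusted p = 0.176). Part 7 was 0.62 ± 0.37 below part 6 (adjusted p = 1.0).

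Myf5, the first muscle determination factor to appear in the mouse somite, was near the floor in most arrays. Its signals were 9.41, 2.14 and 3.09 in part 1, 22.5, 8.37 and 6.62 in part 2, and 22.4, 20.6 and 7.24 in part 3. They were 24.0, 28.9 and 6.94 in part 4, 1.5, 8.11 and 5.35 in part 5, and 3.42, 4.36 and 15.3 in part 6. In part 7 they were 155 and 203 in replicates 1 and 3 and 2.83 in replicate 2. Replicates 1 and 3 of part 7 thus lay above every other array of the series, and replicate 2 of part 7 lay within the range of part 1.

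Myf5 was 4.31-fold higher in part 7 than in part 1 (log2 difference 2.11 ± 0.58, adjusted p = 0.0192), and the slope of 0.19 ± 0.09 per part did not pass (adjusted p = 0.169). The difference between parts 7 and 1 lost its call in 6 of 24 fits without a replicate number or an array, among them those without replicate 1 (adjusted p = 0.288) and without replicate 3 (0.188). It was also lost with a constant of 1 (0.0533) and with the arrays of parts 1 and 7 alone (0.122). The F test over the 7 parts did not pass (adjusted p = 0.127), and passed without the second array of part 7 (adjusted p = 9.96e-06). Without that array the step between parts 6 and 7 was 3.06 (adjusted p = 5.64e-05), against 1.94 ± 0.58 with it (adjusted p = 0.718). Myf5 did not reach the stricter filter at the 75th percentile of all signals and was not tested there.

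The second array of part 7 stood apart from the other 2 in some PSM and somite genes as well, picked after their values were seen. Mesp2, the segmentation factor of the anterior PSM, had signals of 9.9 and 9.9 in replicates 1 and 3 of part 7 and 54.1 in replicate 2, with 39.1 to 88.0 in part 6. Tbx6 had 19.7 and 19.0 in those replicates and 50.3 in replicate 2, with 50.8 to 73.2 in part 6. Meox2, a somite homeobox gene, had 778 and 566, and 193 in replicate 2, with 162 to 255 in part 6. In these genes the second array of part 7 was thus nearer to part 6 than to its own replicates. Not all such genes split this way. Dll1, Uncx and Tcf15 had 167, 490 and 2285 in that array, each between the values of its replicates. Of the other members, Dmrt2 had 254 in that array, against 135 and 160 in its replicates and 277 to 399 in part 6, and so was nearer to part 6 as well. Met had 925 there, above its replicates at 710 and 759 and below part 6 at 1165 to 1339. Pax3 lay within its replicates, and Eya1 was lowest of the 3 at 220. The part of this shift in the Myf5 value was not tested.

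Set against all genes tested, all 5 genes were called higher in part 7 than in part 1, where 6.1% of 12143 genes were called higher and 13.4% in either direction. By slope 4 of 5 rose, against 8.09% of all genes that rose. The slopes of the 4 were 0.97 ± 0.09 for Met (adjusted p = 1.69e-08), 0.77 ± 0.08 for Dmrt2 (1.4e-07), 0.56 ± 0.08 for Pax3 (1.22e-05) and 0.54 ± 0.09 log2 units per part for Eya1 (7.4e-05). The median slope was 0.56 over the 5 genes and -0.0013 over all genes tested. Within each of the 3 replicate numbers the slopes of these 4 genes were positive, between 0.45 and 1.11. That of Myf5 was 0.18, -0.03 and 0.41. Every array of part 7 lay above every array of part 1 for 4 of 5 genes, as it did for 14.4% of all genes. Myf5 was the exception. Dmrt2 passed the filter on low signals only through arrays of parts 4 to 7. Its higher values there are thus part of how it came to be tested, here and in the split at part 4. As the 5 genes were chosen with earlier results of these data known, their counts beside all genes are descriptions. Blood markers moved the other way along the parts. By slope 3 of the 5 tested fell (Hba-x, Hbb-bh1 and Alas2) and 0 rose, against 11.1% and 8.09% of all genes. Hba-x, an embryonic globin, had a log2 difference between parts 7 and 1 of -2.56 ± 0.75 (adjusted p = 0.0285). The mean log2 signal of the 5 was 7.91 to 9.07 in part 7 and 8.73 to 10.6 in part 1. The part of blood cells in the levels of the 5 genes was not tested.

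Split at part 4, the genes divided. Part 4 was higher than part 1 for 2 of 5, Met and Eya1, against 2.29% of all genes called higher, and the arrays did not overlap for 3 of 5, Dmrt2 being the other, against 9.61%. Part 7 was higher than part 4 for another 2 of 5, Pax3 and Dmrt2, against 2.21% of all genes. There the arrays did not overlap for 3 of 5, Met with them, against 10.7%. The F test passed for 4 of 5, all but Myf5, against 13.4% of all genes, and that of Eya1 was lost without replicate 1 (adjusted p = 0.134).

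The difference between the late change (part 7 minus part 4) and the early change (part 4 minus part 1) was tested directly. It passed for 1 of 5, Met, with a late minus early change of -3.29 ± 0.64 log2 units (adjusted p = 0.00714), against 1.28% of genes called in that direction and 2.53% in either. This call was lost without replicate 1 (adjusted p = 0.3) and without the first array of part 4 (0.0634). For Eya1 the value was -2.97 ± 0.96 (adjusted p = 0.134) and for Pax3 2.08 ± 0.60 (0.081). For Dmrt2 it was 1.82 ± 0.60 (0.141) and for Myf5 0.62 ± 1.01 (0.937). The signs place Eya1 with Met, and Pax3 with Dmrt2, but those 4 values did not pass. In other fits some did, Eya1 without replicate 3 (adjusted p = 0.0168), Pax3 without replicate 1 (0.0451) and Dmrt2 with weighted arrays (0.0219). Elsewhere they were weaker. Among the alternatives the Dmrt2 value fell as low as 0.53, with adjusted p up to 0.951. With a replicate number or array left out, Pax3 fell as low as 1.11 (adjusted p up to 0.626), and adjusted p reached 0.602 for Eya1.

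**Figure D2:**
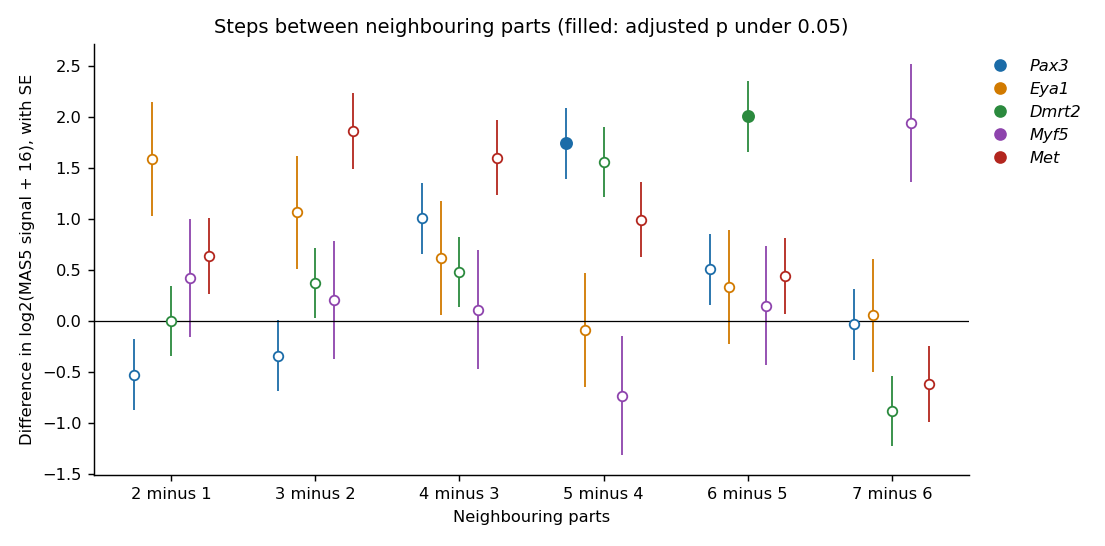
Difference in log2(MAS5 signal + 16) between each part and the part before it, with the SE of the fit, for the 5 genes; filled points have an adjusted p under 0.05. The 2 filled points are Pax3 at part 5 minus part 4 (1.74) and Dmrt2 at part 6 minus part 5 (2.01), while the larger steps of Eya1 and Met lie to the left of part 4.

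Of the 30 single steps of the 5 genes 2 passed, Pax3 between parts 4 and 5 and Dmrt2 between parts 5 and 6, where 0.264% and 0.379% of all genes were called higher. Over all genes, 0.313% were called higher between parts 1 and 2, 0.00824% between parts 2 and 3 and 0.0412% between parts 3 and 4. Between parts 6 and 7 limma called 0 genes of 12143, with 578 at an unadjusted p under 0.05. At that unadjusted threshold 2 of the 5 genes were called there, the lower Dmrt2 and the higher Myf5.

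The order in which the genes rose was described by the half-rise, the part number, on straight lines between part means, at which the mean first passes the middle between its lowest and highest value. It was 2.19 for Eya1, 3.17 for Met, 4.36 for Pax3, 4.87 for Dmrt2 and 6.46 for Myf5. Within each of the 3 replicate numbers the first 4 kept this order. They gave 2.38, 2.45 and 1.83 for Eya1, 2.74, 3.46 and 3.23 for Met, 3.87, 4.63 and 4.35 for Pax3, and 4.55, 5.24 and 5.00 for Dmrt2. The gap between Pax3 and Dmrt2 was near the spread of either over the numbers (SD 0.38 and 0.35), and with an added constant of 1 Dmrt2, at 4.31, came before Pax3. Myf5 gave 6.48, 2.39 and 6.37, so that its place in the order rested on replicates 1 and 3. Without replicate 3 it was 2.45, and with a constant of 1 it was 2.96. The half-rise has no test.

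**Figure D3:**
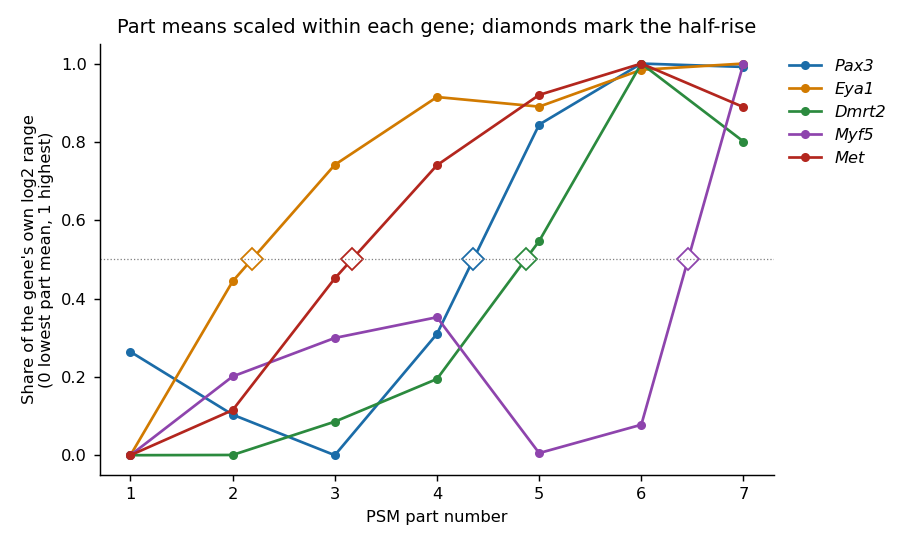
Part means of the 5 genes, each scaled from its lowest (0) to its highest (1) part mean of log2(MAS5 signal + 16), by part number; open diamonds mark where the line first crosses the middle. The diamonds run from Eya1 at 2.19 through Met at 3.17, Pax3 at 4.36 and Dmrt2 at 4.87 to Myf5 at 6.46, and Dmrt2 and Met turn down at part 7.

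The levels of neighbouring parts in that order were often not distinct. For Pax3, parts 1 to 4 had log2 means of 6.80 to 7.81, with overlap between neighbours in the order, and parts 6 and 7 were 0.03 apart. For Eya1, parts 4 to 7 lay between 8.30 and 8.70. Dmrt2 peaked in part 6, at 8.47 ± 0.25, with 7.59 ± 0.43 in part 7 and 6.47 ± 0.95 in part 5, and the arrays of parts 7 and 5 overlapped. Met also peaked in part 6, at 10.28 ± 0.11, and its part 7 overlapped with part 5, at 9.83 ± 0.22. For Myf5 the arrays of every neighbouring pair in the order of levels overlapped.

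Over the 21 arrays the 5 genes were not equally alike. The Pearson correlation of log2 signal was 0.87 between Pax3 and Dmrt2, 0.85 between Eya1 and Met, and 0.83 between Dmrt2 and Met. It was 0.74 between Pax3 and Met and 0.46 between Pax3 and Eya1. With Myf5 it lay between 0.13 for Dmrt2 and 0.34 for Eya1. All arrays share the 7 parts and a few embryos, so these are descriptions with no test.

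Of the 5 genes, 3 have further probe sets. The Pax3 probe set used, 1441743_at, and the other 2 of Pax3 gave the same picture: 1420389_at rose by 0.52 and 1430335_a_at by 0.45 per part (adjusted p = 3.43e-07 and 1.8e-05 in a fit over all probe sets). A second Eya1 probe set, 1443117_at, rose by 0.36 ± 0.05 per part (adjusted p = 2.6e-05), less than the 0.54 of 1457424_at. Its log2 part means rose at every step, from 4.67 in part 1 through 5.81 in part 3 and 6.35 in part 4 to 6.94 in part 7. No half-rise was computed for 1443117_at alone, so the place of Eya1 before Met rests on 1457424_at. Over 4 alternatives, averaged probe sets among them, the half-rise of Eya1 lay between 1.99 and 2.42. The third Eya1 probe set, 1421727_at, reached the median signal of 13.3 in 0 of 21 arrays, with a slope of 0.02, and could not be read as a level. The second Met probe set, 1422990_at, also reached it in 0 of 21 arrays, with a slope of 0.07. Met therefore rests on 1 probe set, 1434447_at, as do Dmrt2 on 1426867_at and Myf5 on 1420757_at.

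**Figure D4:**
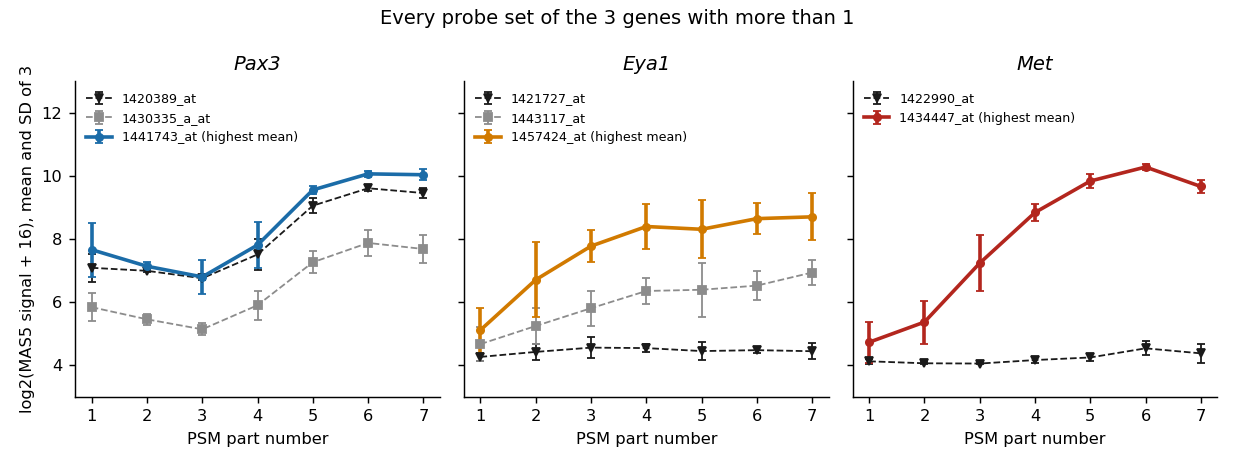
Mean and SD of 3 arrays of log2(MAS5 signal + 16) by part number for each probe set of Pax3, Eya1 and Met; the coloured line is the probe set used. The 3 Pax3 probe sets run in parallel, 2 of the 3 Eya1 probe sets climb, and the other Eya1 and Met probe sets stay near the floor of 4.

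The other regulators of the dermomyotome and young somite moved with the rising genes in part. Of 18 such genes 16 were measured and 12 could be tested. By slope 7 rose, against 8.09% of all genes, 1 fell and 4 did not pass, with a median slope of 0.24. The steepest were the homeobox genes Meox1 (1.16 ± 0.11 per part, adjusted p = 2.56e-08) and Meox2 (0.84 ± 0.08, 4.7e-08), both factors of somite patterning. Tcf15, the factor that makes the somite epithelial, rose by 0.72 ± 0.05 (adjusted p = 1.31e-10), and Foxc2, a forkhead factor of paraxial mesoderm, by 0.70 ± 0.09 (6.86e-06). Sim1, a marker of the lateral dermomyotome in chick, rose by 0.61 per part, Foxc1 by 0.31 and Dach1, a cofactor of the Eya proteins, by 0.18. The call of Dach1 was lost in 9 of 24 fits without a replicate number or array, with adjusted p up to 0.112. Dach2, its paralogue, fell by 0.08 per part. The Dach2 call was lost without replicate 3 (adjusted p = 0.196), and that of Foxc1 without replicate 2 (0.0689). Six4, a DNA-binding partner of Eya1, had log2 means of 8.37 in part 7 and 8.53 in part 1 and a slope of -0.03 (adjusted p = 0.685).

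Of 19 genes further along the muscle lineage 15 could be tested. By slope 2 rose, 1 fell and 12 did not pass, where 8.09% of all genes rose and 11.1% fell. The median slope was 0.02, and the determination and differentiation factors Myod1, Myog and Myf6 had little signal. Those that rose were Msc, a basic helix-loop-helix factor of muscle progenitors, by 0.37 ± 0.09 per part (adjusted p = 0.00453), and Actc1, an actin of early heart and skeletal muscle, by 0.12 ± 0.04 (0.0356). The call of Actc1 was lost with no filter on low signals (adjusted p = 0.0511) and in 7 of 24 fits without a replicate number or array, with a slope of 0.064 without replicate 2 (0.369). Msc was highest in part 4, at a log2 mean of 7.02, with 6.21 in part 7 and 4.22 in part 1. Its call was lost without replicate 2 (adjusted p = 0.0598). Mef2c, a myogenic cofactor that is also active in vessels, fell by 0.22 ± 0.04 per part (adjusted p = 0.000206). Myod1, the determination factor that acts beside and after Myf5, lay between 1.62 and 18.8 in signal over all arrays, with a slope of 0.02 (adjusted p = 0.77). Myog, which drives muscle differentiation, and Myf6 stayed at or below 8.13 and 5.81 in every array. Of the dermomyotome list, Pax7, the paralogue of Pax3, stayed at or below 15.0, and Lbx1, a factor of migrating limb muscle precursors, at or below 14.1. Myog, Myf6, Pax7 and Lbx1 did not pass the filter on low signals and were not tested. The other measured genes not tested were Myh3 and Chrna1 of the muscle list and Eya2 and En1 of the dermomyotome list.

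Transcripts of the ligand and of the relay proteins of Met were read beside it. Of 19 genes of the pathway 17 could be tested. In limma 0 rose, with Cblb at an unadjusted p under 0.05. As 8.09% of all genes rose, a count of 0 in a list of 17 is near that share. The count was 1 with a random replicate block, without the first array of part 2 and without the third array of part 7. Of the 17, 4 fell, against 11.1% of all genes, and 13 did not pass, with a median slope of -0.03. Those that fell were Spint2 (-0.18 ± 0.06 per part, adjusted p = 0.0397) and Spint1 (-0.17 ± 0.04, 0.00612), which inhibit the proteases that activate Hgf, the ubiquitin ligase Cbl (-0.09 ± 0.02, 0.0105) and the phosphatase Ptpn11 (-0.08 ± 0.02, 0.000491). Spint2 lost its call in 4 of 9 alternatives and in 11 of 24 fits without a replicate number or array, with adjusted p up to 0.176. Without replicate 2, Cbl (0.0801) and Ptpn11 (0.0545) lost theirs too, as they did when probe sets of one gene were averaged (0.205 and 0.073). Spint1 lost its call without replicate 3 (adjusted p = 0.0679). Spint1 and Spint2 are also epithelial genes. The mean of the 10 ectoderm and endoderm genes was 4.65 to 5.28 in part 7 and 4.98 to 5.88 in part 1. By slope 2 of 9 tested fell (Grhl3 and Krt8) and 0 rose, against 11.1% and 8.09% of all genes. The part of such cells in these slopes was not tested. Hgf had signals of 0.425 to 31.1 over all arrays and a slope of -0.10 ± 0.04 that did not pass (adjusted p = 0.0897). Gab1, the docking protein of the receptor, was at log2 means of 7.85 in part 7 and 7.70 in part 1 (slope 0.04, adjusted p = 0.257).

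Of 16 genes of the signals that induce the dermomyotome from neighbouring tissues, and of their response, 14 could be tested; 1 rose, 4 fell and 9 did not pass, with a median slope of -0.02. Gli2, a transcription factor of the hedgehog response, rose by 0.48 ± 0.04 per part (adjusted p = 1.78e-09). Its log2 mean was 9.55 in part 7, 7.45 in part 4 and 6.74 in part 1. Bmp4, a ligand of lateral tissues, fell by 0.22 ± 0.06 per part (adjusted p = 0.00887), and Msx1, a target of BMP, by 0.19 ± 0.07 (0.0439). The Msx1 call was lost in 4 of 9 alternatives and in 15 of 24 fits without a replicate number or array, and its slope was -0.10 without the second array of part 1 (adjusted p = 0.133). The Bmp4 call was lost without replicate 1 (adjusted p = 0.059) and without replicate 3 (0.0953). The receptor Fzd1 fell by 0.14 and the ligand Wnt11 by 0.10 per part. Both of these calls were lost without replicate 2 (adjusted p = 0.109 and 0.132). Among sclerotome genes, of the ventral somite, 4 of 8 could be tested, and 3 rose, with a median slope of 0.47. These were Uncx (0.96 ± 0.08 per part, adjusted p = 1.24e-08) and Tbx18 (0.74 ± 0.09, 8.81e-07), which mark the posterior and the anterior compartment of each somite, and Sox9 (0.20 ± 0.05, 0.0025). Pax9 did not pass (slope -0.05, adjusted p = 0.676). Over all genes tested 982 (8.09%) rose and 1346 (11.1%) fell.

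**Figure D5:**
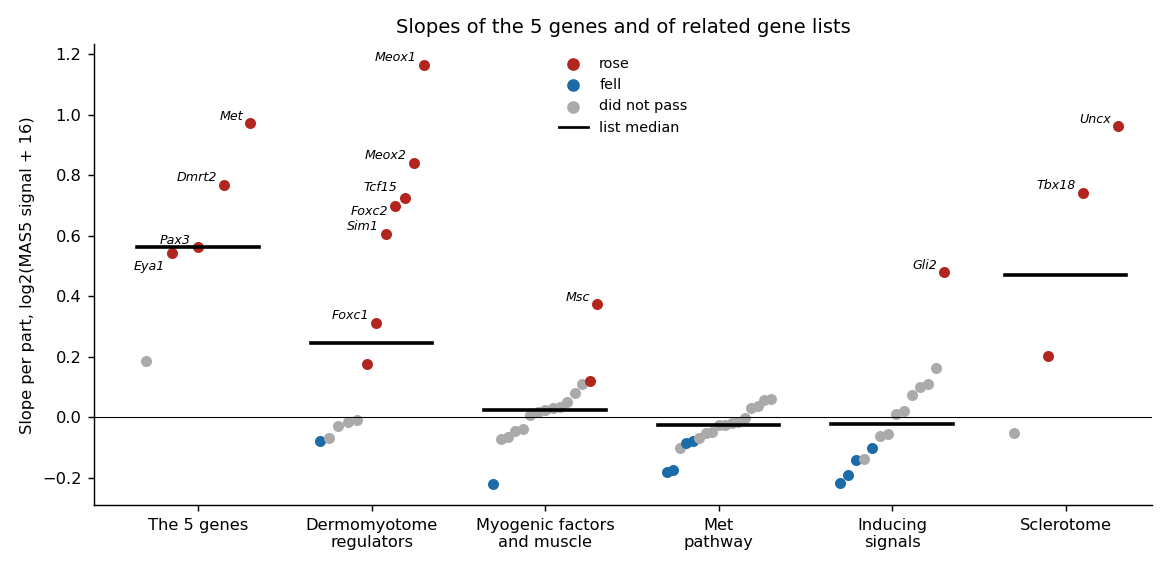
Slope of log2(MAS5 signal + 16) per part for the 5 genes and for the tested genes of 5 related lists; red points rose and blue points fell at an adjusted p under 0.05, grey points did not pass, and black bars are list medians. Met, Dmrt2, Pax3 and Eya1 lie between 0.54 and 0.97, the dermomyotome list reaches 1.16 with Meox1, and most genes of the muscle and Met pathway lists lie within 0.2 of 0.

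The gene most like each of the 5 was sought by the Pearson correlation of log2 signal over the 21 arrays, among all other tested genes. Met was followed most closely by Add3, a membrane skeleton protein (r = 0.992), Meox1 (0.991) and Ntn1, the guidance cue netrin (0.982). Dmrt2 was followed by Uncx (0.973), Zfp536 (0.967) and Pgm5 (0.965), Pax3 by Gm2102 (0.947), Stum (0.944) and Pcp4 (0.943), and Eya1 by Nr2f2 (0.950), a nuclear receptor of mesoderm and veins, Hdgfl3 (0.937) and Ildr2 (0.925). For Myf5 the closest was Fmod, fibromodulin (0.870), then Gpr137 (0.804) and Tspyl4 (0.796). Fmod had signals of 63.8 and 78.2 in replicates 1 and 3 of part 7 and 7.5 in replicate 2, the same split as Myf5. These genes were picked as the highest correlations over all tested genes, on arrays that share parts and embryos, and carry no test.

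RNA integrity was read from the 3′ and 5′ control probe sets, and parts 7 and 1 overlapped. The log2 ratio of 3′ over 5′ signal was 3.65 to 3.87 for actin in part 7 and 2.35 to 3.76 in part 1, and 3.55 to 3.90 for Gapdh in part 7 and 2.21 to 3.64 in part 1. Over all arrays it lay between 2.35 and 4.39 for actin. Its part in the levels of the 5 genes was not tested.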

How the data were processed

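RNA of 21 pieces of presomitic mesoderm was amplified in 2 rounds, labelled with biotin and read on Affymetrix mouse arrays, per the labels' protocols. The deposited table holds a linear intensity for each probe set, which the authors computed in MAS5 according to the submitters' processing notes. For the MAS5 version and target the sources used here give nothing. Because MAS5 sets all arrays to about the same mean, shifts common to most genes are lost, and low signals are noisy. Detection calls played no role.

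Titles gave each array its part. Of 45101 probe sets, 34945 had 1 gene symbol in the platform annotation, 932 several, 9160 none and 64 were controls. For each of 18193 genes the probe set with the highest mean was used, as log2(signal + 16). The filter kept 12143 genes whose probe set reached the median of all values, 13.3, in at least 3 arrays. Tests were run in limma (version 3.58.1, under R 4.3.3) with trended variance and no further terms, adjusted by Benjamini-Hochberg over all kept genes at a threshold of 0.05. Differences, steps and the F test came from a single fit with a mean for each of 7 parts (14 residual degrees of freedom), and slopes from a straight line on the part number. Fits were tested on simulated data. RefSeq tables of assembly GRCm38.p6 gave the promoters.

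The 5 genes, the lists and the tests were chosen with earlier results of these data known. Named genes are the 5, up to 4 per list by absolute slope, 9 fixed genes, the 3 most correlated genes per member and genes behind counts of 5 or fewer. Mesp2, Tbx6, Hes7 and Meox2, where they stand beside Myf5 or the part numbers, were chosen after their values were seen, as were list genes named beyond 4.

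Alternatives were constants of 1 and 64 in place of 16, no filter or a stricter one at the 75th percentile, quantile normalization, untrended variance, weighted arrays, averaging over all probe sets of a gene, a fixed or a random block for replicate number, a fit of parts 1 and 7 alone, and fits lacking each replicate number or array.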

Additional observations from a re-analysis of the deposited data

How the results depend on the processing

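The calls of the 4 genes that rose by slope held under every alternative run, and so did those of Pax3, Dmrt2, Eya1 and Met between parts 7 and 1. Low signals limit Myf5, the lower parts of Dmrt2 and part 1 of Met and Eya1, whose values move with the added constant. With a constant of 1, 127 gene and step pairs were called, against 202, with 1 member pair in place of 2, and the half-rise was 2.96 for Myf5 and 4.31 for Dmrt2. The difference between late and early change then turned to -0.37 for Myf5. It was called for 2 of the 5 genes with a constant of 64, with array weights and with the mean of probe sets. Array weights called 578 genes for it, against 307, and 415 step pairs, 5 of them of members. They turned 2 steps near 0, Dmrt2 between parts 1 and 2 (-0.00065) and Eya1 between parts 4 and 5 (0.027). With the arrays of parts 1 and 7 alone 1076 genes were called between them, against 1628.

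Replicate numbers pair the samples in no label. Deviations of same-numbered arrays correlated above 0.1 in 55 of 63 pairs, with a lowest value of 0.037, and 18 of 21 arrays were most like arrays of their own number. As a replicate block, the number raised the genes called to 2860 for part 7 against 1, 1239 for part 4 against 1, 898 for part 7 against 4, 592 for the late minus early change (Met, with Eya1 at adjusted p = 0.000115 and Pax3 at 0.0342), 3030 for the F test and 782 step pairs (6 of members, adding Eya1 between parts 1 and 2, Met between 2 and 3 and between 3 and 4, and Dmrt2 between 4 and 5). As a random replicate block it gave 2647, 1103, 800, 555 (the same 3 members, Eya1 at 0.00493 and Pax3 at 0.0321), 2723 and 635 (6 of members). Without the block these were 1628, 693, 486, 307 (1 member), 1633 and 202 (2 of members).

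With a replicate number or array left out, the genes called ranged from 1368 to 2324 for the slope (2328 with all arrays), 694 to 1704 for part 7 against 1, 234 to 729 for part 4 against 1, 123 to 541 for part 7 against 4, 90 to 377 for the late minus early change, 598 to 1719 for the F test and 49 to 310 for step pairs. Members called ranged from 0 to 4 for step pairs, 3 to 5 for the F test, 1 to 2 for the late minus early change and 1 to 2 for part 4 against 1. The half-rise ranged from 2.45 to 6.5 for Myf5 and 1.84 to 2.49 for Eya1. Differences near 0 that were turned ranged from -0.63 to 0.86 for Pax3 and -0.042 to 0.72 for Eya1 between parts 4 and 1 and parts 7 and 4, and from -0.56 to 2.21 for the late minus early change of Myf5. The turned steps ranged from -0.012 to 0.015 for Dmrt2 (parts 1 and 2), from -0.60 to 0.33 for Eya1 (parts 4 and 5), -0.022 to 0.85 (5 and 6) and -0.26 to 0.47 (6 and 7), from -0.13 to 0.066 for Pax3 (6 and 7), and from -0.12 to 0.41 (3 and 4) and -0.065 to 0.35 (5 and 6) for Myf5. The slope of Six4 ranged from -0.091 to 0.011. Smaller counts followed fewer arrays, and the cause of the other shifts was not tested.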
